A study of Rattus norvegicus with 36 samples.

Results

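Thyroids of rats given 170 kBq of 131I were compared with thyroids of mock-treated rats at the level of transcripts. The comparison took the 4 arrays whose labels give 170 kBq and the 4 arrays whose labels give 0 kBq, 8 of the 36 arrays of the study. In the whole study 9 groups of 4 rats received from 0 to 4700 kBq, and each rat's thyroid tissue was hybridised once to a one-colour Agilent oligonucleotide array. All rats were adult male Sprague Dawley rats. The irradiated rats were injected in a tail vein with Na131I in saline, the controls were handled in the same way without 131I, and all 8 rats were killed 24 h later. Iodine is taken up by the thyroid, so 131I, a beta emitter, irradiates the gland from within. Per the study's methods, the rats were injected group by group in order of rising activity and the controls came last, so the 170 kBq group was handled before the controls. The labels give no clock times, and time of handling and treatment cannot be told apart here. The RNA came from the excised tissue as a whole and not from sorted cells.

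Gene pathways of 3 kinds frame the results. In the circadian clock, BMAL1 (formerly ARNTL) pairs with CLOCK or NPAS2 and switches on genes through E-boxes, among them the period and cryptochrome genes, whose products hold the pair back, and the Rev-erb genes Nr1d1 and Nr1d2, whose products repress Bmal1 through RRE sites. The clock's output factors DBP, TEF and HLF activate genes at D-box sites, where NFIL3 represses. The second kind is the p53 pathway, which answers DNA damage by turning on genes of growth arrest, feedback and cell death. The last is thyroid function: follicular cells take up iodide through the symporter encoded by Slc5a5, and it is coupled to thyroglobulin, encoded by Tg.

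Levels are given throughout as log2 intensity relative to the 75th percentile of all probes on the same array, so a level of 0 is that percentile and a difference of 1 is a doubling. Ratios are differences of these levels, 170 kBq minus controls, estimated with limma, and p-values adjusted by the Benjamini-Hochberg method run over all 30367 probes. The 8 arrays had 62.09 to 74.52% of probes well above background, and no probe was saturated. With 4 rats in a group the number of arrays limits the precision. The median SD of a probe was 0.562 among the irradiated rats and 0.609 among the controls. The median ratio of all probes was 0.122, so the whole distribution lay slightly above 0 under this scaling. The smallest p that an exact two-sided permutation test of 4 against 4 rats can give is 0.0286.

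The tissue on the arrays was not uniform. The 20 listed follicular-cell genes had a mean level of 0.58, 1.20, -3.84 and -3.41 in irradiated rats 1 to 4 and of 1.30, 0.22, -3.45 and 1.64 in control rats 1 to 4. Irradiated rats 3 and 4 and control rat 3 were thus low in these genes, and the other 5 rats were high. Tg, which encodes the thyroid prohormone, stood at 7.24, 7.48, 4.14 and -2.78 in the irradiated rats and at 6.96, 6.89, 3.17 and 7.36 in the controls. On the array labelled 170 kBq, rat 4, Tg thus lay below the array's 75th percentile, as did Slc5a5 (-6.14). These defining markers of the labelled tissue were low there, while 17 of the 20 listed follicular-cell genes were well above background. Slc5a5 was also far below that percentile in irradiated rat 3 and control rat 3. The same array was the highest in the squamous epithelium list, at 4.57 against -5.10, -3.81 and -4.85 in the other irradiated rats, and control rat 3 was the highest control, at 2.70. Krt5, a keratin of basal squamous cells, was at 4.44 on the former array and 2.07 on the latter. Control rat 2 carried lymphocyte and thymocyte transcripts at levels that none of the other 7 arrays reached. The 10 measured lymphocyte genes averaged 0.52 there and between -5.92 and -5.52 in the other controls, and the 4 thymocyte genes averaged 1.80. Parathyroid genes ranged from -7.43 to 3.47 over the 8 arrays, with Pth, parathyroid hormone, at 6.89 in irradiated rat 1 and -8.68 in irradiated rat 4. Transcripts of fast skeletal muscle were abundant on all 8 arrays, with a list mean of 5.99 to 7.39. Several results below are also given without the 3 arrays low in follicular genes.

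**Figure D1:**
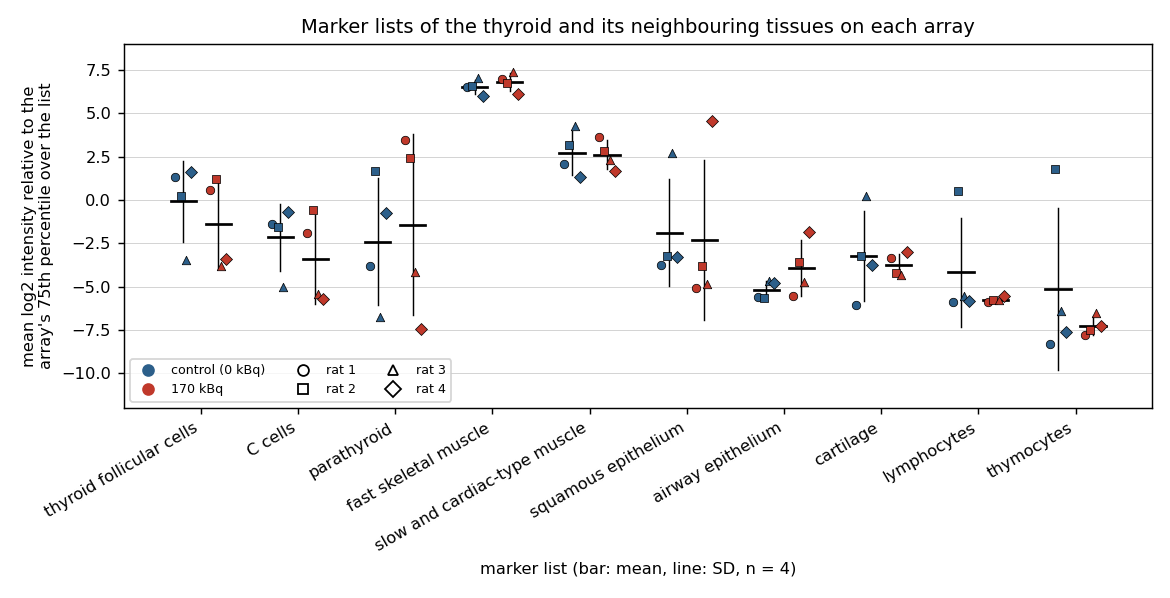
Mean log2 level of 10 marker lists on each of the 8 arrays, relative to the array's 75th percentile (blue, controls; red, 170 kBq; symbol shape, rat number; bar and line, mean and SD of 4 rats). Irradiated rats 3 and 4 and control rat 3 sat at -3.84, -3.41 and -3.45 for the follicular-cell list while the other 5 arrays lay between 0.22 and 1.64, and control rat 2 stood alone for lymphocytes (0.52) and thymocytes (1.80).

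Against this variation few transcripts differed between the groups. No probe of 30367 (0%) passed an adjusted p under 0.01 with a fold change of at least 1.5. At an adjusted p under 0.05 and the same fold change 3 probes passed (0.00988%), and all 3 belonged to the circadian clock: 2 probes for Dbp, which fell, and 1 for Bmal1, which rose. At an unadjusted p under 0.05 without a fold limit, 725 probes were counted, 665 of them higher (2.19% of all probes) and 60 lower (0.198%) at 170 kBq. With no difference between the groups a share of 0.05 of all probes would be expected there, more than was counted. At an unadjusted p under 0.01 with a fold change of at least 1.5 there were 105 higher probes (0.346%) and 18 lower ones (0.0593%), so that 85.4% of these were higher. This split depended on the scaling: with quantile normalization 62 were higher and 44 lower (58.5% higher), and with the authors' own normalized matrix 63 and 45 (58.3%). All 4 irradiated arrays lay above all 4 controls for 311 of 30361 probes (1.02%) and below them for 72 (0.237%). For both directions together a share of 0.0286 would be expected with no difference, again more than was counted.

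Dbp, a PAR bZIP transcription factor whose transcript follows the clock closely, was the gene with the smallest p. Its probe A_64_P049827 read 1.16, 1.40, 1.62 and 0.43 in irradiated rats 1 to 4 and 3.55, 3.90, 4.72 and 3.09 in control rats 1 to 4. Every irradiated rat was below every control, with a gap of more than 1 log2 unit between the groups. The ratio was -2.66 ± 0.44 (SE; 95% interval -3.56 to -1.77), a 6.34-fold lower level (limma, adjusted p = 0.0343; exact permutation p = 0.0286), or -2.79 relative to the median of all probes. A second Dbp probe gave -2.64 ± 0.45 (adjusted p = 0.0343), and the brightest of the 3 gave -2.63 ± 0.49 with an adjusted p of 0.0651. The difference was -2.91 among the 3 rats of each group scanned on the first day and -1.93 between the single pair scanned on the second day. It was -3.48 within slide 1 (1 irradiated rat, 2 controls) and -2.62 within slide 2 (2 irradiated rats, 1 control). With the 3 arrays low in follicular genes left out, this probe gave -2.23 (adjusted p = 1).

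Bmal1, the activator subunit of the clock, moved the other way. Its probe A_44_P214873 read 0.20, -0.32, 0.90 and 0.30 in the irradiated rats and -1.54, -0.88, -2.40 and -1.24 in the controls. The groups did not overlap: the lowest irradiated rat was still above the highest control. The ratio was 1.79 ± 0.31 (95% interval 1.14 to 2.43), 3.45-fold higher (limma, adjusted p = 0.0370; exact permutation p = 0.0286), and the second Bmal1 probe gave 1.51 ± 0.36 with an adjusted p of 0.735 and again no overlap. Within scan day 1 the difference was 1.57 and within scan day 2 it was 2.44. Within slides 1 and 2 it was 2.12 and 0.82. Without the 3 arrays low in follicular genes it was 1.16 (adjusted p = 1).

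The calls of these 3 probes depended on single rats and on the fit, while their direction did not. Without any 1 of the 4 irradiated rats, or without control rat 3, no probe passed at an adjusted p under 0.05, and without control rat 2 only Bmal1 did. Without control rat 1 or control rat 4, Dbp passed and Bmal1 did not. In a fit to the 8 arrays alone, in place of the fit to all 36 arrays that share one estimate of spread, the smallest adjusted p was 0.992. It was 0.0646 with each array centred on its median and 0.144 with slide as a block, so no call was left there either. With quantile normalization or with the authors' matrix both Dbp and Bmal1 passed (limma, smallest adjusted p over all probes 0.000869 and 0.000916). With array weights or with tissue lists as covariates Dbp passed (adjusted p = 0.00611 and 1.91e-05, limma) and Bmal1 did not. Over the 23 settings tried, the reported one included, the ratio of the first Dbp probe ran from -3.14 to -2.23 and that of the first Bmal1 probe from 1.16 to 2.0.

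**Figure D2:**
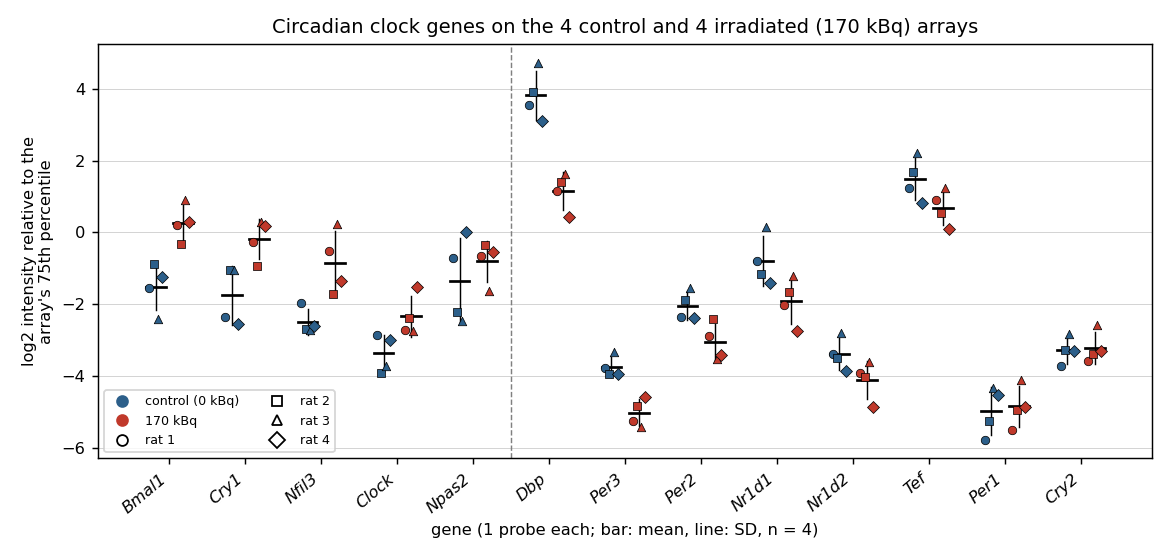
Log2 level of 13 clock genes on each of the 4 control (blue) and 4 irradiated arrays (red), relative to the array's 75th percentile, with mean (bar) and SD (line); left of the dashed line the genes of the activator phase, right of it the output and repressor genes. Bmal1, Cry1, Nfil3 and Clock have all 4 irradiated rats above all 4 controls, Dbp, Per3 and Per2 all 4 below, and the remaining 6 genes overlap. Dbp and Per3 are drawn by their probe with the smallest p and not by the brightest, which represents them in the list. Ciart and Bhlhe40 are not drawn.

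Promoters of 3 clock genes are shown because Bmal1 stood on one side of the comparison, Ciart and Per2 stood on the other, and each window holds a different one of the sites named above. The windows are RefSeq's (GRCr8), from 250 bases before to 50 bases after the gene start, read 5′ to 3′ on the gene's strand, with matches in capitals. The motifs searched on both strands were the E-box CACGTG, the D-box TTANGTAA and the RRE TNGGTCA, and none of the matches shown overlaps another motif. Bmal1 (chr1:176766078-176766377, plus strand) holds 1 RRE that begins 16 bases before the start, Ciart (chr2:186112197-186112496, minus strand) holds 3 E-boxes that begin 93, 35 and 21 bases before it, and Per2 (chr9:99496944-99497243, minus strand) holds 1 D-box.
Bmal1: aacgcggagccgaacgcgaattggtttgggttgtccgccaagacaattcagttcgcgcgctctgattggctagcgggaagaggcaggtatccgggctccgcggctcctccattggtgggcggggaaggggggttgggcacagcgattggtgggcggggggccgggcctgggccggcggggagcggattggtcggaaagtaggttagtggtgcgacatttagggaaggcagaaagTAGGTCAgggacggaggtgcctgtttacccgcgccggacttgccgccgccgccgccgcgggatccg
Ciart: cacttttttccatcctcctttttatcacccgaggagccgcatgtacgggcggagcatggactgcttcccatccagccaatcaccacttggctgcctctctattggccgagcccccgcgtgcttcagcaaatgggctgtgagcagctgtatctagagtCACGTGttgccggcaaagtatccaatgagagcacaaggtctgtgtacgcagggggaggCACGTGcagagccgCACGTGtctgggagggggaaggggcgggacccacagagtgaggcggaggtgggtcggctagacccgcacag
Per2: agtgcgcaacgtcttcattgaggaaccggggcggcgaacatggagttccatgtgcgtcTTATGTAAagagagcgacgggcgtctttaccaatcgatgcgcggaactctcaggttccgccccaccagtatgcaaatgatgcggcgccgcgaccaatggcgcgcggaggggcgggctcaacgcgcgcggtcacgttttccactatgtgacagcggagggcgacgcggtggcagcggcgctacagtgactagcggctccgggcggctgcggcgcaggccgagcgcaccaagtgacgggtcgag
Windows were found for 15 of the 19 listed clock genes. An E-box was in a window of 5 of these genes, a D-box in 1 and an RRE in 1. The genes with an E-box were Ciart, Tef, Nr1d1, Bhlhe40 and Bhlhe41, the last not measured. Over all 33469 windows of this length 6.42% held an E-box, 2.24% a D-box and 11.1% an RRE. Clock and Nr1d1 have more than 1 window each, so the count of genes and the share of windows are not on the same scale. A match describes these letters and not a bound site, and the windows of Dbp and Per3 hold none of the 3 motifs.

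The remaining genes of the activator phase lay on the side of Bmal1. Of 7 listed genes 5 were measured, Bmal1 included, and 4 of them were higher at an unadjusted p under 0.05, against 2.19% of all probes. These 4 had all irradiated rats above all controls, against 1.02%. Bmal1, described above, is 1 of these 4, and its values enter the counts and the median. The median ratio of the list was 1.56, beside 0.12 for all probes. Cry1, a cryptochrome that represses the clock late in its cycle, read -0.28, -0.95, 0.28 and 0.17 in the irradiated rats and -2.37, -1.05, -1.06 and -2.55 in the controls. The groups were separate, but irradiated rat 2 stood close to control rats 2 and 3. Its ratio was 1.56 ± 0.39 (unadjusted p = 0.000362, adjusted p = 0.916, limma), 1.20 within scan day 1 and 2.65 within scan day 2. Nfil3, the D-box repressor, read -0.51, -1.72, 0.23 and -1.36 against -1.97, -2.68, -2.72 and -2.61, a ratio of 1.65 ± 0.70. Clock read -2.71, -2.38, -2.74 and -1.51 against -2.86, -3.91, -3.73 and -2.99, with a ratio of 1.04 ± 0.36 and irradiated rats 1 and 3 close to control rat 1. Npas2, the alternative partner of BMAL1, overlapped fully, with a ratio of 0.54 ± 0.61.

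Among the output and repressor genes 10 of 12 were measured, Dbp included. Of these, 3 were lower at an unadjusted p under 0.05 (against 0.198% of all probes), and Dbp, described above, is 1 of the 3. All irradiated rats were below all controls for 2 genes (against 0.237%), and the median ratio was -0.76. Per3, a period gene, had 3 probes that differed in strength. The probe with the smallest p read -5.26, -4.83, -5.41 and -4.59 in the irradiated rats and -3.78, -3.95, -3.33 and -3.94 in the controls, which left a clear gap and a ratio of -1.27 ± 0.30 (unadjusted p = 0.000197, adjusted p = 0.735, limma). Another gave -0.89 ± 0.32, and the brightest, which represents Per3 in the list, gave -0.53 ± 0.40 (unadjusted p = 0.202). Per2 read -2.89, -2.40, -3.54 and -3.41 against -2.36, -1.89, -1.55 and -2.38. Irradiated rat 2 lay just below the lowest controls, and the ratio was -1.02 ± 0.49 (unadjusted p = 0.0477). Without the 3 arrays low in follicular genes it was -0.44. Ciart, an inhibitor of the BMAL1 complex, was not well above background on any irradiated array and was so on 3 of the 4 control arrays. Irradiated values under the lowest level detected on their array were raised to that level, and the controls were then on average 2.43-fold higher. Measured group means were -5.34 in the controls and -8.05 in the irradiated rats (unadjusted p = 0.00424, adjusted p = 0.995, limma). The Rev-erb genes and Tef had lower means with overlap: Nr1d1 -1.10 ± 0.93, Nr1d2 -0.71 ± 0.49 and Tef -0.80 ± 0.49. Per1 (0.12 ± 0.43) and Cry2 (0.07 ± 0.29) were within their errors of 0.

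The higher genes with the smallest p outside the core clock had ratios from 0.55 to 1.48. Among the 12 higher genes named by p were, after Bmal1 and Cry1, Phlpp2, a phosphatase that acts on AKT (1.48 ± 0.36, unadjusted p = 0.000243, adjusted p = 0.735), Ap4e1, a subunit of the AP-4 adaptor of vesicle transport (0.89 ± 0.21, adjusted p = 0.735), and Tdrd3, a Tudor domain protein that binds methylarginine (0.66 ± 0.17, adjusted p = 0.975). Phlpp2 read -5.36, -4.10, -3.59 and -4.75 in the irradiated rats and -6.28, -6.24, -5.36 and -5.85 in the controls. Irradiated rat 1 and control rat 3 met at the same value and the other rats were apart. Acin1 (0.63 ± 0.16), Thumpd1 (0.55 ± 0.16), Virma (1.17 ± 0.35) and Hnrnph2 (0.55 ± 0.17) encode proteins of RNA splicing and RNA modification. Lpgat1, a phospholipid acyltransferase (1.05 ± 0.31), Dnajc17, a J-domain co-chaperone (0.83 ± 0.24), and Ncoa2, a nuclear receptor coactivator (0.83 ± 0.26), completed the higher genes. Ap4e1 and Virma were well above background on all 4 irradiated arrays and on 2 of the 4 control arrays. None of the 24 genes other than Dbp and Bmal1 had an adjusted p under 0.05. All the higher genes except Phlpp2 had irradiated rats wholly above controls, against 1.02% of all probes. They were picked by their p in this same comparison, so this separation follows largely from the choice and is no further evidence.

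Among the lower genes, after Dbp and Per3, Cebpd, a C/EBP transcription factor of the acute phase, read 1.91, 1.37, 2.29 and 1.32 against 3.50, 2.57, 1.98 and 3.77. Control rat 3 fell among the irradiated rats, and the ratio was -1.23 ± 0.35 (unadjusted p = 0.00160, adjusted p = 0.995, limma). Cyp2e1, a cytochrome P450 that oxidises ethanol, read -4.92, -4.41, -5.93 and -7.36 against -3.20, -1.99, -3.90 and -1.55, without overlap and with a ratio of -3.00 ± 0.92 (unadjusted p = 0.00279, adjusted p = 0.995). It was well above background on 3 of the 4 irradiated arrays, and its ratio was -2.42 without the 3 arrays low in follicular genes. Aif1, a macrophage marker, had a ratio of -0.90 ± 0.35, with control rat 2 the highest at 2.15. Klf9, a Krüppel-like factor that glucocorticoids and thyroid hormone induce, gave -0.74 ± 0.30. Aif1, the tetraspanin Tspan4 (-0.67 ± 0.29) and the zinc finger gene Zfp426 (-0.45 ± 0.20) did not overlap between the groups, while Fam76a (-0.44 ± 0.18), Fam180a (-1.18 ± 0.50), Comtd1 (-0.71 ± 0.33) and Fxyd5 (-0.87 ± 0.41) did. Of all probes 0.237% had all irradiated rats below all controls, and these genes too were picked by their p in this comparison. The adjusted p of all these genes was 0.995.

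**Figure D3:**
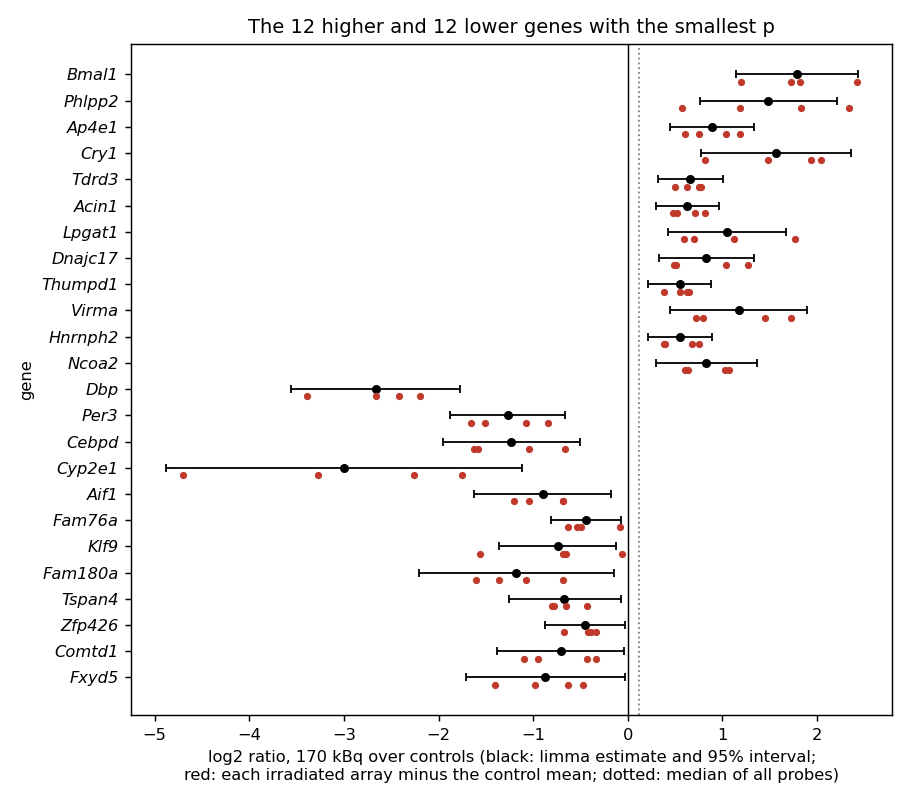
Log2 ratio of 170 kBq over controls for the 12 higher and 12 lower genes with the smallest p (black, limma estimate with 95% interval; red, each irradiated array minus the control mean; dotted line, median of all probes at 0.122). Dbp (-2.66), Cyp2e1 (-3.00) and Bmal1 (1.79) have the estimates farthest from 0, and those of the remaining genes lie between -1.27 and 1.56.

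The p53 targets split evenly around 0 at 170 kBq. Of 26 listed genes 22 were measured, 1 was higher at an unadjusted p under 0.05 and none was lower (against 2.19 and 0.198% of all probes), 11 had positive and 11 negative ratios (64.9% of all probes had a positive one), and the median ratio was -0.02, beside 0.12 for all probes. Cdkn1a, the p21 inhibitor of cyclin-dependent kinases, read 1.07, 1.81, 3.48 and 3.58 in the irradiated rats and 0.18, 0.76, 3.24 and 1.60 in the controls. Its highest values were those of irradiated rats 3 and 4 and control rat 3, the 3 rats low in follicular genes. The ratio was 1.04 ± 0.82 (unadjusted p = 0.215, limma), it was 0.60 without those rats, and the second Cdkn1a probe gave 0.28 ± 0.30. Mdm2, the ligase that degrades p53, read -0.02, -0.15, 0.50 and -0.23 against -0.41, -0.07, 0.38 and -0.47, with a ratio of 0.17 ± 0.24. Aen, a p53-induced nuclease, read 1.64, 1.49, 1.27 and 1.87 against 0.86, 1.02, 0.99 and 0.52. It was the only listed target with all irradiated rats above all controls (against 1.02% of all probes), and its ratio was 0.72 ± 0.41 (unadjusted p = 0.0901, adjusted p = 0.995; exact permutation p = 0.0286). A second Aen probe overlapped, at 0.52 ± 0.51. Rrm2b, a p53-induced subunit of ribonucleotide reductase, was the gene under an unadjusted p of 0.05, with a ratio of 0.58 ± 0.27 (unadjusted p = 0.0400, adjusted p = 0.995, limma; exact permutation p = 0.0571) and 3 of 4 irradiated rats above all controls. Plk2, a polo-like kinase, had the highest ratio of the list at 1.22 ± 0.66, and irradiated rat 4 alone, at -1.10, was above all controls. For the death genes Bax (0.02 ± 0.29), Bbc3 (-0.28 ± 0.91) and Fas (-0.90 ± 0.88) the ratios were within or close to their errors, and Pmaip1 was not well above background on any of the 8 arrays.

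**Figure D4:**
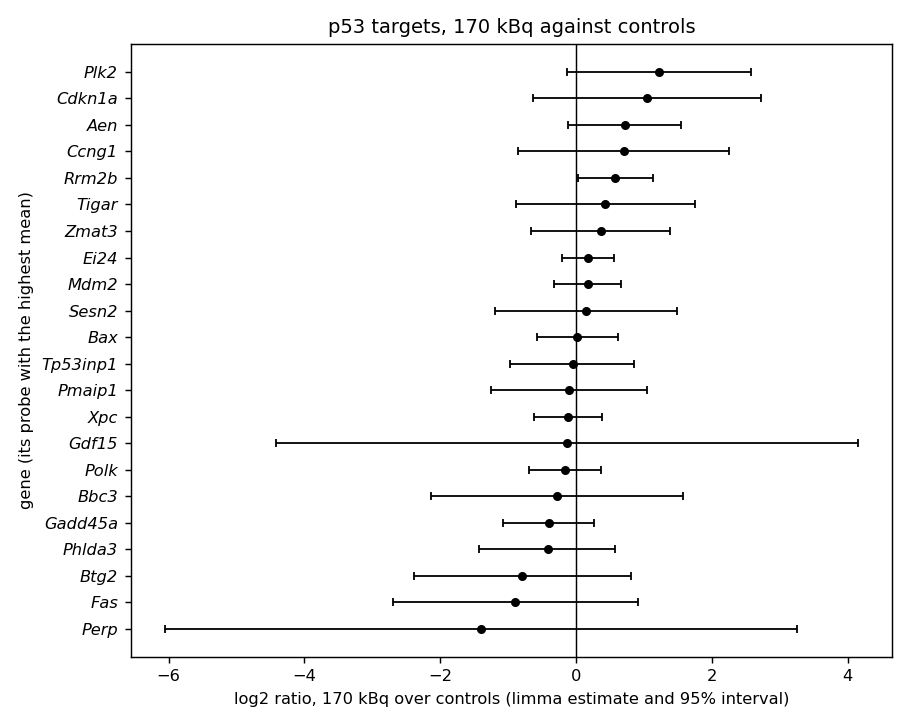
Log2 ratio of 170 kBq over controls for the 22 measured p53 targets, each by its probe with the highest mean (limma estimate with 95% interval), sorted by the estimate. The estimates run from -1.40 to 1.22 on either side of 0, and only the interval of Rrm2b (0.58) leaves 0 out.

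Genes of DNA damage signalling and repair had ratios close to 0. Of 26 listed 23 were measured, and none passed an unadjusted p of 0.05 in either direction (against 2.19% of all probes higher and 0.198% lower). The ratios ran from -0.71 to 0.42 and their median was -0.03. The smallest p of the list was 0.218, for Wee1, a kinase that restrains entry into mitosis (-0.63 ± 0.50), followed by Ogg1, a glycosylase of oxidised guanine (-0.34 ± 0.31). Brca1 was not well above background on any irradiated array and on only 2 control arrays, so no fold is given. Cell cycle genes had a median ratio of -0.64 over 18 measured genes with none under an unadjusted p of 0.05, and the median was 0.17 without control rat 2, -1.49 without irradiated rat 4 and -1.38 without the 3 arrays low in follicular genes. Their mean level was -0.26 in irradiated rat 4 and 0.12 in control rat 2, and between -4.32 and -2.94 in the other 6 rats. Those 2 arrays were also the highest in squamous epithelium and in lymphocyte genes, respectively, and the part of these tissues in the cell cycle levels was not tested.

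Genes of thyroid function had lower means at 170 kBq that did not exceed the spread between rats. All 20 listed follicular-cell genes were measured and 18 had negative ratios, against 10654 of all 30367 probes. None passed an unadjusted p of 0.05, which 2.19% of all probes passed as higher and 0.198% as lower, so none among 20 is near those shares. The median ratio was -1.42, beside 0.12 for all probes. In such tissue, fewer cells of a type and less RNA per cell cannot be told apart. Slc5a5, the iodide symporter, read 0.67, 2.62, -5.71 and -6.14 in the irradiated rats and 2.54, 0.69, -6.93 and 3.54 in the controls, so each group held arrays above 0 and arrays far below it. Its ratio was -2.10 ± 3.18. The transcription factors Pax8 (-2.21 ± 2.99), Hhex (-2.31 ± 1.83) and Nkx2-1 (-2.09 ± 2.86) and the TSH receptor gene Tshr (-1.31 ± 1.95) had the same split of arrays. In Tg (-2.08 ± 2.59) irradiated rats 3 and 4 and control rat 3 were also the lowest, but only irradiated rat 4 was below 0. Tg differed by -1.83 within scan day 1, by -2.82 within scan day 2, by -8.05 within slide 1 and by 0.47 within slide 2. With irradiated rats 3 and 4 and control rat 3 left out, the median ratio of the list was -0.05 and the ratio of Tg was 0.29. These arrays were picked for their low level in this same list, so the shift follows largely from that choice and does not test treatment. The interval of the Tg ratio over all 8 arrays, -7.38 to 3.22, leaves room for large differences either way. Summed over the list, the log2 level ranged from 3.83 to 8.50 in the irradiated rats and from 3.70 to 8.62 in the controls.

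The C cells, which make calcitonin, went with the follicular genes. All 12 listed genes were measured and 11 had negative ratios, against 10654 of all 30367 probes. None passed an unadjusted p of 0.05 (against 2.19% of all probes higher and 0.198% lower). The median ratio was -0.99, or -0.29 without the 3 arrays. Calca, the calcitonin gene, read 5.91, 6.86, -4.02 and -7.87 in the irradiated rats and 6.90, 6.27, -2.81 and 6.94 in the controls. The 3 low values were again those of irradiated rats 3 and 4 and control rat 3. These are the arrays left out, so the shift of the median to -0.29 follows largely from that choice.

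The other lists gave few genes under an unadjusted p of 0.05, which 2.19% of all probes passed as higher and 0.198% as lower. Among 13 measured immediate early genes, Egr1, a zinc finger factor induced within minutes of many stimuli, read -0.44, -0.76, 0.88 and -0.09 against -2.74, -1.05, -1.16 and -1.61. The irradiated rats were all above the controls, as for 1.02% of all probes, and the ratio was 1.54 ± 0.65 (unadjusted p = 0.0239, adjusted p = 0.995, limma). Fos, a subunit of AP-1, was likewise apart, with a ratio of 1.59 ± 0.83 (unadjusted p = 0.0659), but the median ratio of the list was 0.32 and Nr4a1 (-0.05 ± 0.78) and Atf3 (-0.35 ± 0.74) overlapped. Of 12 glucocorticoid-responsive genes 2 were lower at an unadjusted p under 0.05 (against 0.198% of all probes), Cebpd and Klf9 above, and the median ratio was 0.02. The list had 6 positive and 6 negative ratios. Tsc22d3 (0.22 ± 0.40) and Fkbp5 (0.62 ± 0.67), induced by glucocorticoids in many tissues, overlapped, and so did Mt2A on the lower side (-1.45 ± 0.99). Of 17 interferon-stimulated genes only Ifih1, a sensor of double-stranded RNA, was under 0.05, with a ratio of 0.64 ± 0.28 (unadjusted p = 0.0280), and the median was -0.43. The 19 genes of peroxide and redox defence had none, a smallest p of 0.365 and a median of 0.04. The heat shock and cold-inducible genes (median 0.11 over 9 genes) and the endoplasmic reticulum stress genes (median -0.18 over 12 genes) also had none.

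Lists of neighbouring tissues varied by array more than by group. Squamous epithelium had a median ratio of -0.45 over 12 genes, which became -2.79 without irradiated rat 4, 1.38 without control rat 3 and -0.76 without the 3 arrays low in follicular genes. It had 1 gene under an unadjusted p of 0.05 (against 2.19% of all probes higher), Tp63, a p63 factor of basal epithelium, at 0.75 ± 0.28 (unadjusted p = 0.0127, adjusted p = 0.995, limma; exact permutation p = 0.0571). Tp63 read 2.19, 1.98, 2.46 and 1.43 in the irradiated rats and was lowest there in irradiated rat 4, the array highest in Krt5. Airway epithelium had 2 of 7 genes higher at that p, Scgb3a1, a secretoglobin, at 3.03 ± 1.28 (unadjusted p = 0.0248) and Tekt1, a protein of cilia, at 0.86 ± 0.40 (unadjusted p = 0.0385). Scgb3a1 reached 2.57 in irradiated rat 4 and was between -5.78 and -3.31 in the controls, and its ratio was 1.58 without irradiated rat 4 and 1.01 without the 3 arrays. Lymphocyte genes were all lower in mean at 170 kBq (median ratio -1.70 over 10 genes), as were 10654 of all 30367 probes. None was under 0.05 (against 0.198% of all probes lower). The lymphocyte median was -0.17 without control rat 2 and from -2.26 to -1.26 under every other setting tried. Cartilage (-0.71), adipose tissue (-0.50), fast muscle (0.32), slow and cardiac-type muscle (-0.37), erythroid cells (0.21), thymocytes (-1.99) and parathyroid genes (1.54) had none under 0.05 in either direction. Over the 23 settings the median ran from -3.46 to 0.19 for thymocytes (0.19 without control rat 2), from -0.90 to 4.75 for parathyroid genes (4.75 without the 3 arrays), from -1.48 to 0.68 for cartilage, from -1.02 to 1.19 for slow and cardiac-type muscle and from -0.17 to 0.45 for erythroid cells.

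The neighbouring activities placed the clock genes beside the same controls. Dbp averaged 3.82 ± 0.69 (SD, n = 4) in the controls, 1.12 ± 0.44 at 88 kBq, 1.15 ± 0.52 at 170 kBq and 1.39 ± 0.55 at 260 kBq. Bmal1 averaged -1.52 ± 0.65, 0.41 ± 0.42, 0.27 ± 0.50 and 0.17 ± 0.19 in the same order. For neither gene was a difference between 170 kBq and its neighbours larger than its error. Dbp at 170 minus 88 kBq was 0.03 ± 0.44 (SE) and at 170 minus 260 kBq -0.24 ± 0.44, and Bmal1 was -0.14 ± 0.31 and 0.10 ± 0.31. The mean level of the activator-phase list was -2.10 ± 0.28 in the controls, -0.83 ± 0.29 at 88 kBq, -0.78 ± 0.26 at 170 kBq and -0.99 ± 0.09 at 260 kBq. For the output and repressor list it was -1.70 ± 0.56, -2.91 ± 0.42, -2.66 ± 0.39 and -2.79 ± 0.51. The means of the 3 irradiated groups lay closer to each other than to that of the controls, which they share as their reference. Follicular-cell genes averaged -1.05 ± 2.66 at 88 kBq and -0.78 ± 2.58 at 260 kBq, so that a wide spread between rats was present in those groups too.

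**Figure D5:**
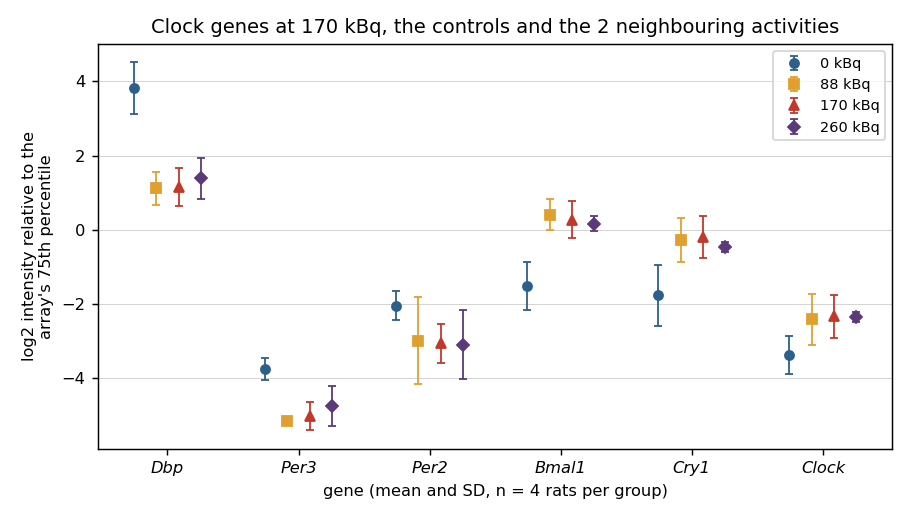
Mean and SD (n = 4 rats) of the log2 level of 6 clock genes in controls and after 88, 170 and 260 kBq, relative to the array's 75th percentile. For Dbp the 3 irradiated groups lie between 1.12 and 1.39 against 3.82 in the controls, and for Bmal1 between 0.17 and 0.41 against -1.52. Dbp and Per3 are drawn by their probe with the smallest p in 170 kBq against controls.

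No probe passed an adjusted p under 0.05 in 170 against 88 kBq or in 170 against 260 kBq (limma, smallest adjusted p = 1 in each), and 441 and 440 probes had an unadjusted p under 0.05. At an unadjusted p under 0.01 with a fold change of at least 1.5 there were 49 probes against 88 kBq (0.161%) and 64 against 260 kBq (0.211%). List medians of 170 minus 88 kBq were 0.07 for the activator-phase genes, 0.22 for the output and repressor genes, -0.03 for p53 targets and -0.40 for follicular-cell genes. Against 260 kBq they were 0.10, 0.11, -0.11 and -0.57.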

How the data were processed

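Each of the 36 arrays held Cy3-labelled total RNA of 1 rat, so the 4 arrays of a group are separate rats. The authors deposited scanner files of Agilent Feature Extraction 10.7.3.1 with background-corrected, processed signal intensities. They also deposited a matrix of quantile-normalized intensities, of which the log2 was taken here. For the submitters' processing, their notes name Partek. Here the log2 of the processed intensity was taken, each array's 75th percentile over all non-control spots was subtracted, spots with outlier marks were left out and spots of 1 probe were averaged, which gave 30367 probes. Symbols came from RefSeq (GRCr8) through the probes' accessions for 17998 probes. A gene list was read through 1 probe per gene, that with the highest mean.

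Groups were compared with limma 3.58.1 in R 4.3.3 (lmFit and eBayes on all 36 arrays, 1 term per group, Benjamini-Hochberg adjustment over all probes), with exact permutation tests for single genes. Figures were drawn with matplotlib 3.10.9. The script was tested on simulated data. Named genes are the 12 higher and 12 lower genes with the smallest p, each detected above background in all 4 rats of at least 1 of the groups, the 3 genes with the smallest p in each of 23 lists, and a fixed set of clock, p53, thyroid and tissue genes, of which 1 is not reported here. The comparison, the lists and the named genes were chosen with earlier results of these data known. Alternatives were quantile normalization, median centring, normexp background correction (offset 50), the deposited matrix, a filter on dim probes, slide, scan day or rat number as a block, the 8 arrays alone, trended and robust variances, array weights, outlier spots kept, tissue lists as covariates and each rat left out. The removal of the 3 arrays low in follicular genes, and the values within a scan day, were chosen after seeing the data.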

Additional observations from a re-analysis of the deposited data

Results flagged for a closer look

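A sample was singled out when its distance to the nearest of the other 3 rats of its group took up nearly the whole range of the group, which chance gives in about 1 of 20 groups. This held for 5 of 46 list levels and 7 of 90 probe levels. The causes were not tested.

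Control rat 2 stood apart in the cell cycle list, at a mean log2 level of 0.12 against -3.01 to -2.94 in the other controls, and in the lymphocyte list, at 0.52 against -5.92 to -5.52. Squamous epithelium genes averaged 4.57 in irradiated rat 4, against -5.10 to -3.81 in the other irradiated rats, and 2.70 in control rat 3, against -3.73 to -3.21 in the other controls. Krt5 in irradiated rat 4 was at 4.44, against -5.75 to -4.16.

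Control rat 3 stood apart from the other controls in 4 genes and in the glucocorticoid-responsive list, which averaged -0.16 there against 0.22 to 0.28. It was low in Tg (3.17 against 6.89 to 7.36), Calca (-2.81 against 6.27 to 6.94) and Dnajc17 (-5.32 against -4.48 to -4.44), and high in Klf9 (2.25 against 1.63 to 1.73). Ncoa2 was low in control rat 1, at -4.88 against -4.39 to -4.37. The brightest Per3 probe was high in irradiated rat 3, at -2.06 against -2.80 to -2.69.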

How the results depend on the processing

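At an adjusted p under 0.01 with a fold change of at least 1.5, the count of 0 became 3 with quantile normalization or the authors' matrix, 5 with array weights and 4 with tissue lists as covariates, and ran from 0 to 1 with 1 rat left out. At an adjusted p under 0.05 the count of 3 became 0 with median centring, slide as a block, the 8 arrays alone or the 3 arrays low in follicular genes removed, 10 with array weights and 5 with tissue covariates, and ran from 0 to 4 with 1 rat left out. At an unadjusted p under 0.01 the count of 123 became 68 with normexp, 64 without dim probes (which leaves 19777 probes to test), 79 with the 8 arrays alone, 448 with array weights and 411 with tissue covariates, and ran from 80 to 252 with 1 rat left out, the latter without irradiated rat 1. It was 209 without control rat 3. Against 88 kBq the count of 0 at an adjusted p under 0.05 became 2 with array weights, and against 260 kBq it became 1 with tissue covariates. Except in the fit to fewer probes or arrays, the cause was not tested.

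The rat numbers do not pair the rats: deviations of same-numbered rats correlated at 0.54, 0.03, 0.42 and -0.17. With the replicate block 0 probes passed an adjusted p under 0.05, and the smallest adjusted p was 0.0669.

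None of the called ratios changed sign in the alternative fits. Of the 105 probes followed through these fits, 19 had a ratio of the opposite sign in at least 1 of them, single slides and scan days aside. Among them were Myh7 (0.22 with array weights, 0.11 without irradiated rat 4, 1.32 without the 3 arrays), Slc5a5 (0.11 with tissue covariates), Tshr (0.10) and Tg (0.19) without irradiated rat 4, Tg (0.29) without the 3 arrays and the second Mdm2 probe (-0.01) without control rat 4. Brca1 was 0.05 with normexp. With 1 rat left out at a time the ratios ran from -1.82 to 0.11 (Myh7), from -3.23 to 0.19 (Tg) and from -0.01 to 0.26 (Mdm2). The median ratio of the follicular-cell list ran from -2.63 to 0.09 and that of p53 targets from -0.10 to 0.24, and 14 of 23 list medians had both signs over the settings. With dim probes, 5515 of them not well above background on any of the 8 arrays, signal over background limits what could be seen.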
